A study of Mus musculus with 4 samples.

Results

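The Six-Eya-Dach genes were followed here through 8 members, Six2, Six4, Six5, Eya1, Eya2, Eya3, Eya4 and Dach1, in microarray data from mouse embryos. The members were taken by name: every probe set whose only gene symbol in the platform annotation was one of the 8 was included. That gave 21 of the 45037 probe sets that remained after the array's controls were left out, and 8 of the 18193 gene symbols. ARC/s embryos at embryonic day 8.5 (4 to 5 somites) had been dissected into foregut endoderm, from the anterior intestinal portal, and a mixture of heart mesoderm with head mesoderm and ectoderm. Each tissue was sampled 2 times, and a sample was a pool of 15 to 20 pieces. In the first experiment the tissues were parted by hand, and in the second trypsin and pancreatin were used before the dissection, so experiment and way of dissection cannot be told apart. The labels name no genetic change or treatment of the embryos. The comparison tissue holds several cell types, and 1 description field calls foregut endoderm 2 ectoderm, against its title, source and tissue labels. The source labels give a wider stage, 3 to 5 somites.

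Six-family proteins are homeodomain transcription factors. They bind DNA and bring Eya proteins, which cannot bind DNA themselves, into the nucleus and to their target genes. Eya proteins are coactivators that also carry a protein phosphatase domain, and Dach proteins, relatives of the Ski corepressors, act as repressors in the same network. The network was first worked out in the insect eye, and in vertebrates it is known for its roles in the pharyngeal arches and pouches, the sensory placodes, the kidney and muscle.

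A probe set is a group of short probes designed to read the same transcript or group of transcripts, and its values are given as log2 intensity. All tests were run over the 13288 probe sets with a log2 intensity above 5 on at least 2 of the 4 arrays. Of the 21 member probe sets, 8 passed this filter: 3 of Six4, 2 of Eya3 and 1 each of Eya1, Eya4 and Dach1. The other 13 did not, and these included all probe sets of Six2, Six5 and Eya2. Among those 13, 6 lay within 0.1 log2 units of the lowest value on all 4 arrays (the floor), 4 did so on some arrays and 3 on none. With GC-RMA values such a level says only that no signal above background was read. Levels of different probe sets are not compared with each other.

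Promoter windows from RefSeq (build GRCm38.p6, from 250 bases before to 50 after a listed transcript start) were found for 6 of the 8 genes, in 8 windows. They are shown for Six4 and Eya4, members whose level was higher in endoderm each time. Both are on the minus strand and are written 5′ to 3′ in the direction of the gene. The Six4 stretch is chr12:73113426-73113675 and the Eya4 stretch is chr10:23349944-23350193, in each case the 250 bases before the listed start that lies farthest upstream. The third sequence, chr12:73113326-73113354, lies in the other Six4 window and has in capitals a match to TCAGGTTTC, the MEF3 site that Six-family proteins bind, in reverse complement.
Six4 upstream: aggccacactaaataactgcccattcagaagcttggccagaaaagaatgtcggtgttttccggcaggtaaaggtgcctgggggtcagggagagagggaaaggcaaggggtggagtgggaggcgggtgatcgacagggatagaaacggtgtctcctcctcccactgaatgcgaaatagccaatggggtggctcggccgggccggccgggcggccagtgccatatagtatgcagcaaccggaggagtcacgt
Eya4 upstream: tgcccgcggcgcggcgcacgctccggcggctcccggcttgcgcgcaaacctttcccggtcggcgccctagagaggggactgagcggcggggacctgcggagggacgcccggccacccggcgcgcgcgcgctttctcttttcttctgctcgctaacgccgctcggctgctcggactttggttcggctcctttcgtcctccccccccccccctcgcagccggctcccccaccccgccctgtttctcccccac
Six4 MEF3 match: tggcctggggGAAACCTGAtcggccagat

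The MEF3 match in Six4 begins 99 bases before one listed transcript start and 81 bases after the other. Both strands of all windows were searched for TCAGGTTTC, for its shorter form TCAGGTT, which it contains, and for the forkhead site TGTTTAC. These motifs were chosen after the windows had been seen. TCAGGTTTC occurred in 0.429% of the 32851 windows in the table, TCAGGTT in 4.07% and TGTTTAC in 3.65%. Among the 8 member windows only that of Six4 held the first 2 motifs, and none held TGTTTAC. All 8 had more CpG dinucleotides (13 to 37) than the median of all windows, which was 7. These are matches of letters and show nothing about binding in these embryos.

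The arrays resembled each other more within an experiment than within a tissue (Pearson's r across probe sets of 0.928 and 0.907 between tissues of the same experiment, against 0.867 between the endoderm arrays and 0.814 between the others). All 10 genes fixed as foregut endoderm markers were past 2-fold on the endoderm side in each experiment, beside 3.54% of all genes above the filter. Foxa1, Foxa2, Tmprss2 and Cpm among them passed the filter through their endoderm arrays alone. The list was chosen with earlier results of these data known, so this count is no test of the dissection. Of the 10 heart muscle and cardiac progenitor genes above the filter, 9 switched sides, beside 1.60% of all probe sets above it. These heart genes were higher in endoderm by 2-fold or more in experiment 1 and lower by as much in experiment 2. Their summed intensity over all 13 listed genes was 11987 and 1404 on the first and the second endoderm array, and 127 and 85490 on the first and the second mesoderm and ectoderm array. The library labelled mesoderm and ectoderm 1 thus had little heart signal, and foregut endoderm 1 had more of it than foregut endoderm 2.

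Eya1, Eya4 and Six4 read higher in endoderm each time, by up to 5.92-fold, Eya3 differed little, and Dach1 changed sides between the experiments. In both experiments 6 of the 8 member probe sets were higher in endoderm, beside 35.7% of all probe sets above the filter, and 0 were lower, beside 23.8%. The other 2, Dach1 and 1 of Eya3, had differences of opposite sign, beside 40.5%. All 3 Six4 probe sets above the filter are among the 6, so these are not separate genes. Counted by gene, on the brightest probe set, 4 of 5 members were higher in both experiments, beside 37.0% of all genes. None was lower, beside 24.3%. No member passed limma's test after adjustment over all probe sets, where 0% of the 13288 probe sets were called. The lowest adjusted p of any probe set was 0.724. At an unadjusted p under 0.05, 2 of the 8 member probe sets were higher in endoderm, beside 2.97% of all probe sets, and 0 were lower, beside 0.790%. In the limma fit that has the replicate number as a block these were 4, with Eya4 and the second Six4 probe set added, beside 7.28%, and 0, beside 2.69%. With 2 arrays per tissue the test has little reach, and the p-values measure only the spread between these pools. In such bulk tissue, fewer cells of a type and less RNA per cell cannot be told apart.

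**Figure D1:**
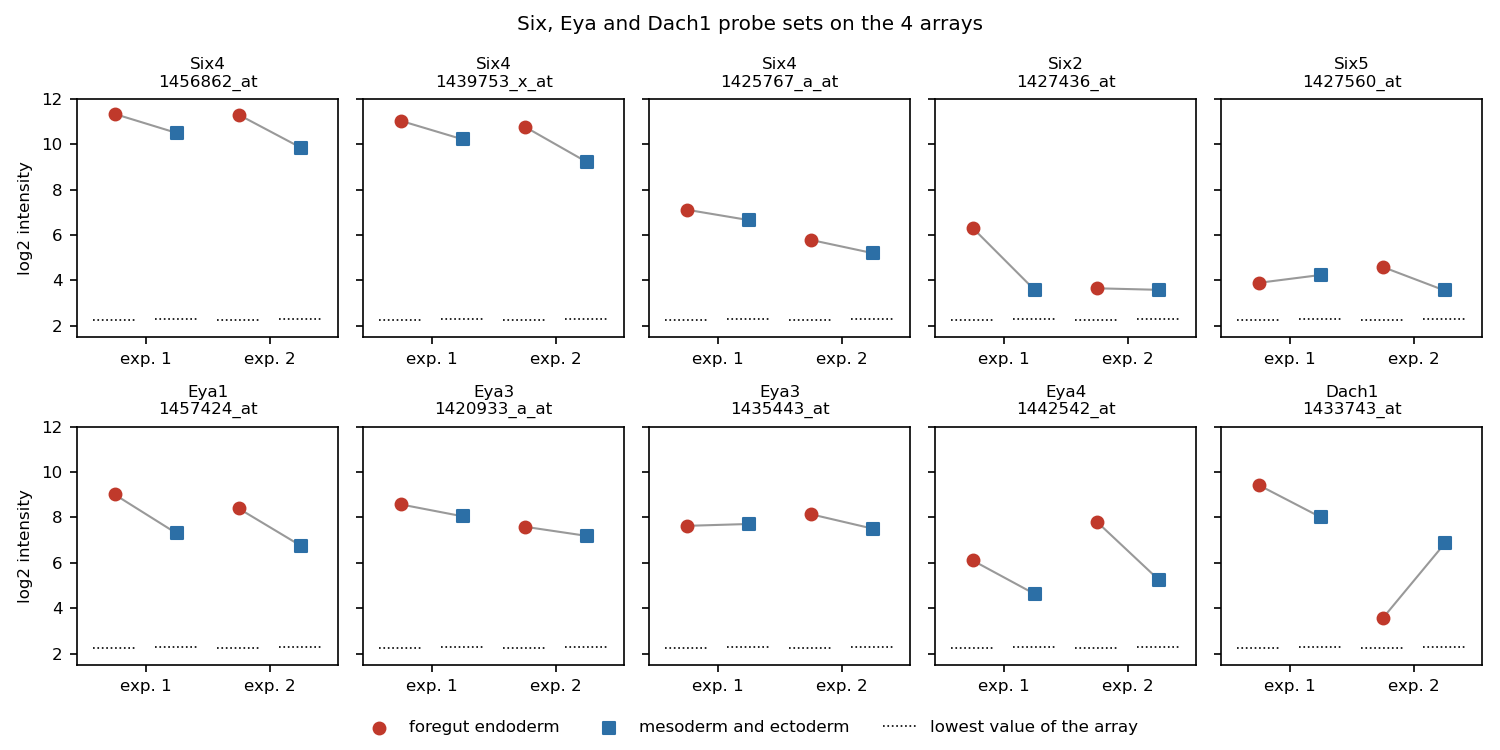
Log2 intensity (vertical axis) of 10 member probe sets on the 4 arrays, with red circles for foregut endoderm, blue squares for mesoderm and ectoderm, grey lines joining the samples of 1 experiment and dotted lines at each array's lowest value. Eya1, Eya4 and Six4 fall from endoderm to the other tissue in both experiments, whereas Dach1 differs by 1.42 in the first and by -3.30 in the second, and Six2 stands out on 1 array only.

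Six4 is a homeodomain factor of somites, placodes and pharyngeal tissue. Its probe set 1456862_at read 11.34 and 11.30 on the first and second endoderm array, against 10.50 and 9.85 on the mesoderm and ectoderm arrays. Both endoderm arrays lay above both others, and the endoderm values were nearly the same in the 2 experiments. Endoderm was 0.84 log2 units higher at first (1.79-fold) and 1.45 higher in experiment 2 (2.73-fold), with a mean of 1.14 ± 0.38 (SE, n = 2 arrays per tissue, 95% interval 0.04 to 2.25, limma's adjusted p = 1).

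The second Six4 probe set, 1439753_x_at, was designed from the same sequence record as the first and is therefore no independent reading. It was at 11.04 and 10.78 in endoderm and at 10.22 and 9.22 in the other tissue, again with no overlap. Its mean difference of 1.19 ± 0.49 (limma, SE) was within 0.04 of the first. The third, 1425767_a_at, comes from another record and was at 7.12 and 5.79 in endoderm and at 6.66 and 5.20 in mesoderm and ectoderm. There the tissues overlapped and both were brighter in the first experiment, and the differences within the experiments were only 0.46 and 0.58. Its mean of 0.52 ± 0.79 (limma, SE) became -0.14 without foregut endoderm 1 and -0.21 without mesoderm and ectoderm 2. The fourth, 1427701_a_at, was at the floor on all 4 arrays (highest value 2.29).

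Six2, known for keeping nephron progenitors in the kidney and also present in head mesenchyme, had 1 probe set and was above 5 on a single array. It read 6.32 on the first endoderm array and 3.65 on the second, against 3.58 and 3.59 on the mesoderm and ectoderm arrays. The last 3 values lay 1.388, 1.302 and 1.302 above their array's lowest value, a nearly constant distance. The difference of 2.74 in the first experiment is therefore a lower bound, and that of 0.07 in the second compares values near the probe set's own lowest level. Beside this, the 10 head mesenchyme markers had a summed intensity of 3014 and 481 on the endoderm arrays and of 757 and 1220 on the others. Each of the 10 left the floor on at least 1 array, and 6 passed the filter. Their part in the Six2 signal was not tested.

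Six5, which lies next to the myotonic dystrophy kinase gene, was dim throughout. Its 1 probe set read 3.89 and 4.59 in endoderm (first and second experiment), against 4.24 and 3.56 in the other tissue. The tissues overlapped, and the difference was -0.35 in experiment 1 but 1.04 in experiment 2.

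Eya1, the coactivator needed for the ear, kidney, thymus and parathyroid, gave the most even difference of the members above the filter. Its probe set 1457424_at read 9.01 and 8.39 in endoderm (first and second experiment), against 7.30 and 6.75 in mesoderm and ectoderm, so that the tissues did not overlap. Endoderm was 3.28-fold higher in experiment 1 and 3.12-fold higher in experiment 2 (1.72 and 1.64 log2 units), with a mean of 1.68 ± 0.43 (SE, 95% interval 0.45 to 2.90, limma's adjusted p = 1, unadjusted 0.02). With that block the SE was 0.22 and limma's adjusted p was 0.41. With any 1 array removed the difference lay between 1.37 and 1.99.

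The other 2 Eya1 probe sets were below the filter. On 1443117_at the values were 5.51 and 4.60 in endoderm against 4.45 and 3.71 in the other tissue, which gave differences of 1.06 and 0.89 in the same direction as on 1457424_at. On 1421727_at foregut endoderm 1 read 3.01, and the other 3 arrays were at the floor (2.27 to 2.29).

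Eya4, a coactivator linked to inherited hearing loss and heart muscle disease, had the largest mean tissue difference among the members above the filter. Probe set 1442542_at read 6.11 and 7.82 in endoderm (first and second experiment), against 4.63 and 5.25 in mesoderm and ectoderm. Both endoderm arrays were above both others, and in each tissue the second experiment was brighter. Endoderm was 2.79-fold higher in experiment 1 and 5.92-fold higher in experiment 2, and the mean log2 difference was 2.02 ± 0.73 (SE, 95% interval -0.08 to 4.13, limma's adjusted p = 1). With the replicate number as a block the interval was 0.77 to 3.27 (SE 0.39, adjusted p = 0.476 in limma). With any 1 array removed it lay between 1.17 and 2.88, the lowest value being that without foregut endoderm 2.

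Of the other 3 Eya4 probe sets, 1456665_at read 3.92 in foregut endoderm 2 and was at the floor elsewhere (2.25, 2.28 and 2.29). That array also had the highest value of 1442542_at. The remaining 2, 1456647_a_at and 1432461_at, reached at most 2.38.

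Eya3, the Eya gene with the broadest expression, was read by 2 probe sets above the filter. On 1420933_a_at endoderm read 8.58 and 7.59 (first and second experiment), against 8.05 and 7.19 in mesoderm and ectoderm. Here the first experiment was brighter in both tissues and the tissues overlapped, with a mean tissue difference of 0.47 ± 0.57 (limma, SE), which was -0.03 without foregut endoderm 1. On 1435443_at it was at 7.63 and 8.14 in endoderm and at 7.71 and 7.50 in the other tissue, also overlapping, with differences of -0.08 and 0.64. The limma intervals of the mean tissue difference, -1.17 to 2.10 and -0.77 to 1.32, span 0. The first reaches past 2-fold on both sides and the second on the upper side. The other 2 Eya3 probe sets were at the floor on all 4 arrays.

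Eya2, a coactivator of muscle precursors and placodes, had a single probe set, and this was at the floor on all 4 arrays. Its values were 2.25 and 2.36 in endoderm and 2.29 and 2.29 in mesoderm and ectoderm. Its level in these tissues was thus not detectable with this probe set.

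Dach1, the corepressor of the network, differed in opposite directions. Probe set 1433743_at read 9.43 in endoderm and 8.01 in the other tissue in the first experiment, but 3.55 and 6.85 in the second. The endoderm arrays held both the highest and the lowest value. The value of 3.55 was dim, 1.288 above its array's lowest, though not at the floor, so folds against it may be lower bounds. Endoderm was 2.67-fold above the other tissue in experiment 1 (1.42 log2 units) and 9.84-fold below it in experiment 2 (-3.30), and its own arrays were 58.7-fold apart. The mean of -0.94 ± 2.22 (SE, 95% interval -7.32 to 5.43, limma's adjusted p = 1) became 2.00 without foregut endoderm 2 and -3.88 without foregut endoderm 1. The other 2 Dach1 probe sets stayed between 2.25 and 2.42. The summed intensity of the head mesenchyme markers was likewise highest in foregut endoderm 1 (3014) and lowest in foregut endoderm 2 (481). On the mesoderm and ectoderm arrays this sum was 757 and 1220, in the opposite order to Dach1. The median log2 intensity of the same 10 markers, however, had the order of Dach1 on all 4 arrays. It was 7.53 and 3.51 on the first and second endoderm array, and 5.52 and 5.41 on the mesoderm and ectoderm arrays. Among these markers 6 passed the filter, and 4 of them switched sides as Dach1 did, by 2-fold or more each time, beside 1.60% of all probe sets. The other 2, Prrx1 and Foxc1, were unlike Dach1 and higher in endoderm in both experiments. The sums for the listed markers of neural crest (276), endothelium (178) and red blood cells (214) were, like that of head mesenchyme, lowest in foregut endoderm 2. None of these sums had the order of Dach1 on the remaining arrays. Neural crest was highest in mesoderm and ectoderm 1 (2846) and red blood cells in mesoderm and ectoderm 2 (2451). Endothelium was at 218 and 580 on the first and the second mesoderm and ectoderm array. The part of these cell types in the Dach1 signal was not tested.

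**Figure D2:**
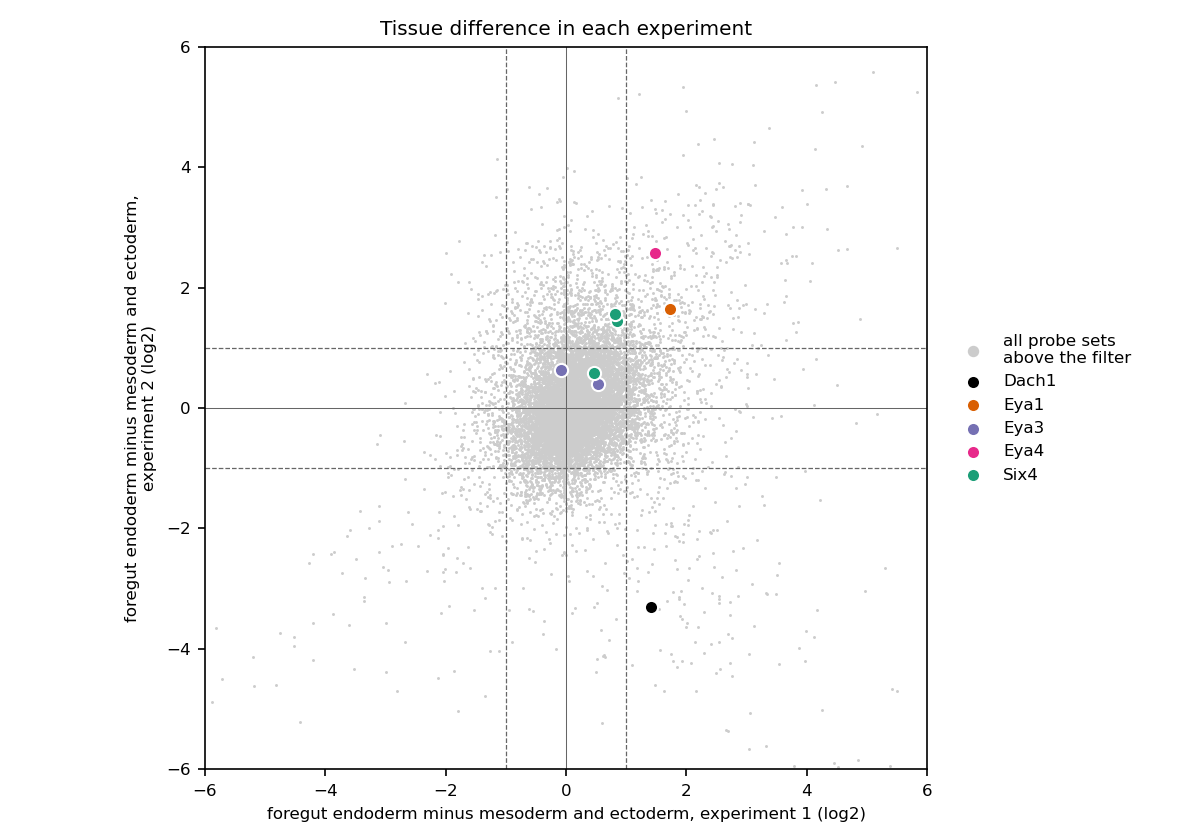
Foregut endoderm minus mesoderm and ectoderm (log2) in the first experiment (horizontal axis) and in the second (vertical axis) for 8 member probe sets in colour and all probe sets above the filter in grey, with dashed lines at 2-fold; 37 probe sets lie outside the plotted range. Eya1 and Eya4 lie past 2-fold in both experiments, 2 Six4 probe sets pass it in the second alone, and Dach1 lies in the quadrant of opposite signs.

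Across the members, each experiment gives a difference of its own, here with no test. At least 2-fold higher in endoderm in both experiments were 2 of the 8 member probe sets, those of Eya1 and Eya4, beside 3.57% of all probe sets above the filter, and 0 were at least 2-fold lower, beside 1.00%. Quantile normalization left the same pair, beside 2.72% higher and 1.47% lower of all probe sets, as did median centring, beside 2.61% and 1.59%. At least 1.5-fold higher in both were 4, with 2 of Six4 added, beside 8.82%. Both endoderm arrays were above both others for 4 of the 8, beside 16.4%, and below for 0, beside 9.05%. These 4 come from 3 genes, since 2 read the same Six4 sequence. Dach1 was the member past 2-fold above in experiment 1 and past 2-fold below in experiment 2, as 1.60% of all probe sets were. The median member difference was 0.83 and 1.04 in experiments 1 and 2, against 0.12 and 0.03 over all probe sets. Only probe sets above the filter enter these figures, and without it the first count was 2 of 21, beside 1.28%. Eya4 would not have passed the filter on its mesoderm and ectoderm arrays alone, at 4.63 and 5.25. With an array left out, the tissue's remaining array was set against both arrays of the other tissue. Such counts mix the experiments and do not show whether the experiments give the same result. Without foregut endoderm 2 the pair at least 2-fold higher was Eya1 and Dach1, as Eya4 left it, beside 4.64% of all probe sets. Without mesoderm and ectoderm 1 there were 3, Eya1 and 2 of Six4, but the share of all probe sets also rose, to 8.26%. Without foregut endoderm 1, Dach1 was at least 2-fold lower, beside 2.36%.

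**Figure D3:**
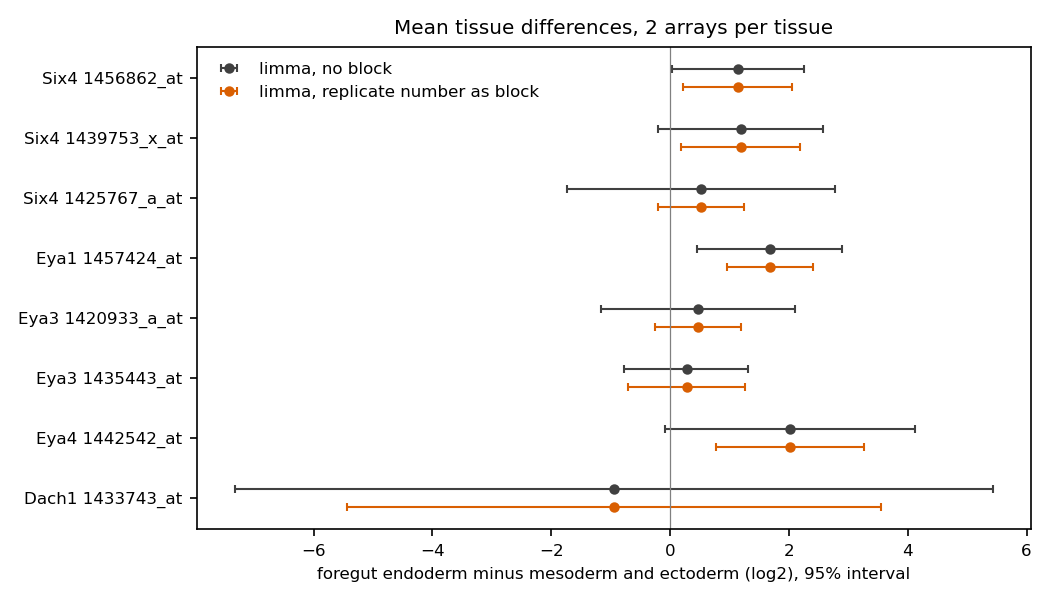
Mean tissue difference (log2, horizontal axis) of the 8 member probe sets above the filter with its 95% interval from limma, without a block in grey and with the block in orange. The interval of Eya1 lies above 0 in both fits, from 0.45 and from 0.96, and that of Dach1 spans 0 in both.

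The experiments could also be compared with each other, with tissue as a term in limma. No member passed the test (0% of all probe sets did, and the lowest adjusted p was 0.0966), and at an unadjusted p under 0.05, 2 of the 8 were lower in the second experiment, beside 13.7% of all probe sets, and 0 were higher, beside 16.3%. These were Six4 1425767_a_at, at -1.39 ± 0.23 (SE, adjusted p = 0.102), and Eya3 1420933_a_at, at -0.92 ± 0.23 (limma, adjusted p = 0.131). At least 2-fold lower in the second experiment in both tissues were 2, Six4 1425767_a_at and Dach1, beside 7.19%, and 0 were 2-fold higher, beside 11.4%. Dach1 changed by -5.88 in endoderm and by -1.16 in the other tissue. Eya4 went the other way, by 1.71 in endoderm and 0.62 in mesoderm and ectoderm. Eya1 changed by -0.62 and -0.54, nearly alike in the 2 tissues.

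The genes whose 4-array profiles lay nearest to each member were found by Euclidean distance between log2 profiles centred on their own mean, among 7802 genes. With 4 arrays this is a description of those arrays. Nearest to Dach1 were Pdgfra, the PDGF receptor of mesenchyme, at a distance of 0.67 log2 units, the mesenchymal cadherin gene Cdh11 at 1.15 and the forkhead factor gene Foxd1 at 1.16. Pdgfra read 9.86 in endoderm and 7.91 in the other tissue in the first experiment, and 4.28 and 7.55 in the second. It thus shared with Dach1 the order of the arrays, highest in foregut endoderm 1 and lowest in foregut endoderm 2.

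Nearest to Eya4 were Emb, an immunoglobulin superfamily gene, at 0.25, the secreted collagen repeat protein gene Cthrc1 at 0.33 and Spint2, an inhibitor of surface serine proteases, at 0.39. Their differences ran from 1.44 to 1.74 in experiment 1, and from 2.20 to 2.32 in experiment 2. Nearest to Eya1 were Reck, an inhibitor of matrix metalloproteinases, at 0.15, Nudt4 at 0.19 and the histone gene H3f3b at 0.24. The nearest to Six4 were Npc1, a cholesterol transporter of lysosomes, at 0.11, D430019H16Rik and Lrig1, both at 0.14. For Eya3 (1420933_a_at) they were Slc25a51, Atxn7l3b and Serinc1, at 0.05 to 0.09. The profile of Eya3 spanned 1.39 log2 units and that of Dach1 5.88, and distances between flat profiles are small by construction.

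**Figure D4:**
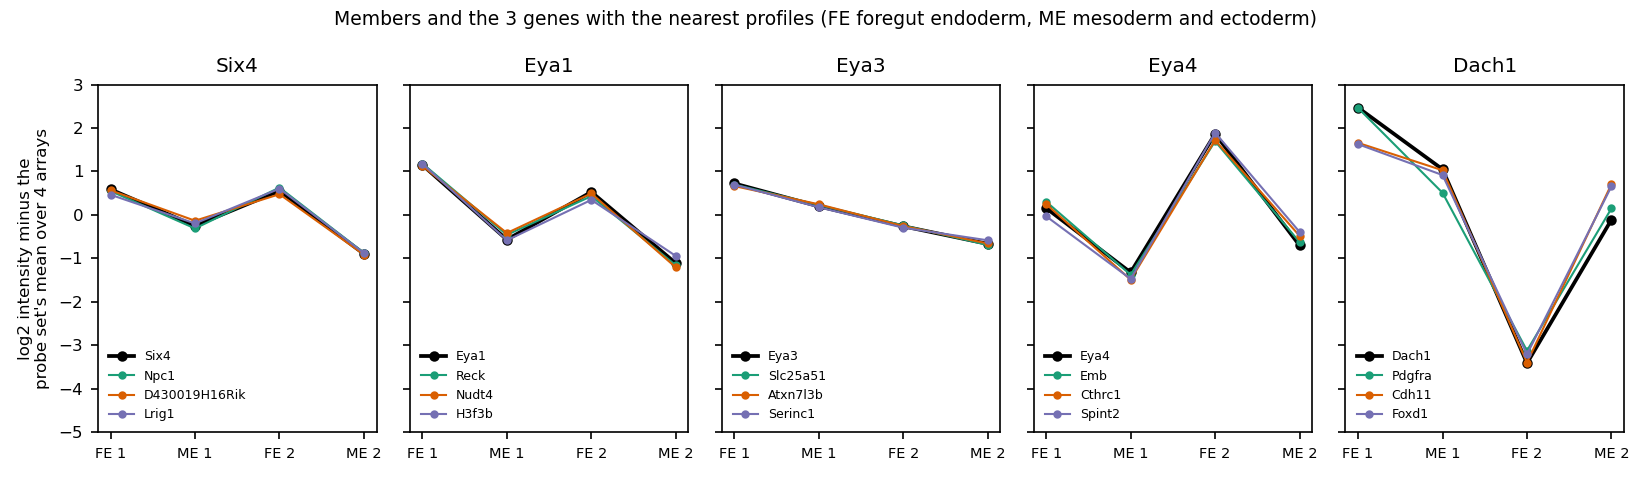
Log2 intensity minus the probe set's own mean over the 4 arrays (vertical axis) for 5 members (black) and the 3 genes nearest to each (colours), with the tissues of the first experiment on the left and those of the second on the right (FE, foregut endoderm; ME, the other tissue). Dach1 and its neighbours drop in foregut endoderm 2, where Eya4 and its neighbours peak.

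The other Six and Dach genes that were listed lay on the opposite side to Eya1 and Eya4. For comparison, the share of the 7802 genes above the filter that lay past 2-fold each time was 3.54% on the endoderm side and 1.24% on the other. Of the 4 listed, 3 had a probe set with a single symbol and only Six3, a forebrain and eye factor, passed the filter. Six3 was at 5.50 and 5.61 in endoderm and at 8.60 and 8.01 in mesoderm and ectoderm, with differences of -3.10 and -2.39 (limma's adjusted p = 0.724). These values come from 1 probe set, and the other Six3 probe sets were at the floor on all 4 arrays (at most 2.29). Six6, a close relative of Six3 in the eye and pituitary, was below the filter but in the same order. It was at 3.94 and 2.78 in endoderm and at 5.49 and 4.88 in the other tissue. Dach2 was dim, at 4.16 and 3.25 against 4.32 and 3.98 on its brighter probe set and at the floor on all 4 arrays on the other.

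Of the 7 Pax genes listed, factors that act with or above the Six-Eya genes, 3 passed the filter. Pax6, a factor of eye and forebrain, was at 3.22 and 2.46 in endoderm, against 7.97 and 6.20 in the other tissue, and Pax3 differed in the same direction (-4.41 and -5.21), with dim endoderm values of 4.27 and 3.01. Pax9, of the pharyngeal pouches, differed by 6.50 and 8.18, lower bounds since it was at the floor outside the endoderm. Of 12 upstream signals and regulators, 4 passed the filter. Past 2-fold on the endoderm side each time were 3 of these, beside 3.54% of all genes: Tbx1 (3.03 and 3.39), Isl1 (4.53 and 2.63) and Shh (3.15 and 3.71). Tbx1 is a T-box factor of the pharynx and Isl1 a LIM homeodomain factor of heart progenitors and pharynx. Shh, the hedgehog ligand, is also among the foregut endoderm markers. The fourth, the head factor gene Otx2, differed by -2.68 and 0.08. Tbx1 passed the filter through its endoderm arrays alone, at 3.76 and 4.16 on the others, and so did Pax9. Pax3 and Pax6 passed it through their mesoderm and ectoderm arrays alone. Among genes of these lists limma called 0 after adjustment over all probe sets, and the lowest adjusted p was 0.724.

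Of the 16 listed cofactors of Six-Eya-Dach proteins, 11 passed the filter. In both experiments 5 of these were higher in endoderm, beside 37.0% of all genes, and 2 were lower, beside 24.3%. Past 2-fold on the same side in each were 0, with median differences of 0.11 and 0.13, close to the 0.15 and 0.01 of all genes. Skil, a Ski relative like Dach1, was at 9.17 and 8.65 in endoderm and at 7.65 and 7.82 in the other tissue (1.52 and 0.83). Tle4, a Groucho corepressor, was at -0.98 and -0.42, and Ski itself at 0.83 and 0.50. Of 15 genes reported as targets of the network, 6 passed the filter, and their median differences were 0.49 and 0.78. Sall1, a zinc finger factor of kidney and limb, was the one at least 2-fold higher in both experiments, at 11.77 and 11.01 in endoderm against 10.34 and 8.93. Slc12a2, a salt cotransporter, differed by 0.71 and 1.22 and Ezr, which links membrane and actin, by 0.38 and 1.21. The muscle targets Myod1, Myf5 and Myog were at the floor on all 4 arrays.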

How the data were processed

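The deposited intensity values, 1 per probe set and array, were made by the authors, who per the series' design text normalized Affymetrix mouse MOE430 arrays by GC-RMA within GenePattern. RNA had been amplified in 2 rounds. Their versions were not given in the sources used here, and the linear scale was read from the values. GC-RMA estimates and removes background, so dim probe sets share a floor (between 41.4% and 44.8% of probe sets per array), and folds against it are bounds. Log2 was taken here and 64 controls were left out.

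Genes were named from GEO's platform annotation (1 symbol for 34945 probe sets, several for 932, none for 9160). All 21 member probe sets were matched by gene identifier to RefSeq. Tests used limma 3.58.1 under R 4.3.3 (lmFit with eBayes, two-sided, Benjamini-Hochberg over 13288 probe sets), which was first tested on simulated data. The labels' protocols tie samples of 1 number to 1 way of dissection, so the numbers pair them; over probe sets the second minus first differences of the tissues correlated at 0.56. Genes named from a list were those with the smallest limma p, at most 3 a list, and the other genes by counts. Exceptions, named after their values were seen, were Six6, Dach2 and Otx2, all dim probe sets and the muscle targets. So were Foxa1, Foxa2, Tmprss2 and Cpm, named because they passed the filter through their endoderm arrays alone. Members, lists and tests were chosen with earlier results of these data known. Precision is limited by 2 arrays per tissue, and nothing shows the pools to be separate litters.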

Additional observations from a re-analysis of the deposited data

Results flagged for a closer look

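Tissue differences of opposite sign in the 2 experiments were found for 2 of the 8 member probe sets above the filter, beside 40.5% of all probe sets. Dach1 1433743_at differed by 1.42 in the first experiment and by -3.30 in the second, where the endoderm value was dim. Eya3 1435443_at differed by -0.08 and 0.64. Each experiment holds 1 array per tissue, so the difference between the experiments was not tested.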

How the results depend on the processing

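The alternatives were quantile normalization, median centring, an offset of 16, no filter, a filter at log2 above 6, the replicate number as a block and leaving out each array. Of the 8 member tissue differences, 5 kept their sign in every one. The median tissue difference over all probe sets was 0.10 as deposited, -0.01 after quantile normalization and -0.08 after median centring. Leaving out 1 array reversed the others: Six4 1425767_a_at ran from -0.21 to 1.25, with -0.14 without foregut endoderm 1, Eya3 1420933_a_at from -0.03 to 0.96 and Dach1 from -3.88 to 2.00. Of the 8 experiment differences 7 kept their sign, and that of Eya3 1435443_at ran from -0.21 (without either endoderm array) to 0.51. Limma called 0 probe sets in each of these fits, with a lowest adjusted p of 0.0847 without a filter and 1 without foregut endoderm 1. With the replicate number as a block it called 0, with a lowest adjusted p of 0.351, and no member's call changed; the block gave Eya1 the same 1.68, Eya4 2.02 and Six4 1456862_at 1.14. Member probe sets at least 2-fold higher in both experiments numbered 2 (beside 3.57% of all probe sets), and 4 at 1.5-fold (8.82%). Those at least 2-fold lower numbered 0 (1.00%). With an array left out, the tissue's remaining array was set against both arrays of the other tissue, which mixes the experiments. Counted so, 2 to 3 were higher (4.64% to 8.26%) and 0 to 1 lower (1.54% to 3.95%). Dim signal limits Six2, Six5 and Eya2.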
